A study of Mus musculus with 6 samples.

Results

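Heat shock proteins, chaperonins and their regulators were followed in mouse primary myoblasts kept for more than 2 weeks at 20%, 4% or 1% pO2. The members are the genes whose symbols mark them as Hsp70, Hsp110, Hsp90 or small heat shock proteins, J-domain proteins, CCT subunits, the mitochondrial Hsp60 and Hsp10, Bag proteins or heat shock factors. Hspa5 and Dnajb9 of the endoplasmic reticulum were left out. The rule matched 86 of the 54834 genes in the table. Of these, 71 had a mean of at least 1 FPKM (sequenced fragments divided by transcript length and library depth) over the 6 libraries and were compared further. Most work in the cytosol or nucleus, but 9 of the 71 work in mitochondria and 10 in the endoplasmic reticulum, so these were also counted apart.

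The cells were grown from sorted satellite cells of the Pax7-ZSGreen genotype, a fluorescent reporter that every group carries, including the normoxic controls. Each pO2 had 1 library with vehicle (0.1% DMSO) and 1 with 1 μM PT2385, which keeps HIF-2α from pairing with ARNT, both given for 48 h. By the supplementary methods each library holds RNA pooled from 9 cultures that stand for 3 temporal replicates, so no spread between cultures can be measured. The depth estimated from the steps between low values was 20000000 to 23400000 fragments per library, with the lowest value at 4% pO2 with PT2385. In pooled bulk RNA, fewer cells that express a gene and less RNA per cell cannot be told apart.

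Chaperones bind unfolded chains and keep them from clumping until they fold. Hsp70 cycles between binding and release with ATP: J-domain proteins bring it clients and start the cycle, while Hsp110 and Bag proteins release the spent nucleotide. Hsp90 takes over near-folded clients such as kinases and steroid receptors, the CCT ring encloses actin and tubulin, and Hsp60 with its lid Hsp10 folds proteins inside mitochondria. Hsf1, the main heat shock factor, binds heat shock elements made of alternating GAA and TTC units. In muscle, Bag3 and small heat shock proteins are known for the upkeep of the contractile apparatus.

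The promoters of the members were searched for this element. Those that carry it are shown, a choice made because 3 of the 4 genes are among the members called lower in hypoxia. That count was thus the reason for the display and is not a result. Hspd1 and Hspe1 share their element, so the 4 genes are not 4 separate cases. Promoters came from RefSeq (GRCm38.p6), with 250 bases before to 50 after each start, and matched 56 of the 71 members. A run of 3 units (GAA, TTC, GAA or TTC, GAA, TTC with any 2 bases between units, on either strand, overlapping runs counted) was found for 4 of the 56 genes (7.14%), against 0.576% of genes that passed the same filter and 0.662% of all genes with a promoter. Hspd1 and Hspe1 lie head to head on chromosome 1 and share 1 element of 4 units. It ends 72 bases before the start of Hspe1 at 55088148 and 127 bases before a start of Hspd1 at 55087932. RefSeq lists another start of Hspd1, at 55088243, on the far side of the element. The elements are printed with the repeated units in capitals.
Hspd1 and Hspe1, chr1:55088053-55088082, plus strand: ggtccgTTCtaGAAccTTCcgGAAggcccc
Hsph1, chr5:149636282-149636306, minus strand: tgcagaTTCtgGAAagTTCtcctca
Dnajb6, chr5:29735846-29735870, plus strand: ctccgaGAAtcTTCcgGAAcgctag
The element of Hsph1 lies after both of its annotated starts, at bases 16 to 28 from the nearer one. That of Dnajb6 lies before both of its starts, the nearer being 34 bases away. These matches describe letters in the windows, say nothing of binding, and were picked for display with the oxygen calls known. No such run was found for Hspb1 and Dnajb1, which limma called higher at 1% pO2, or for Hspa4, called lower at both levels. Nor was one found for the stress-inducible Hspa1a and Hspa1b. Elements that depart from the exact pattern or lie outside the windows were not counted, so a gene without a match may still carry one. Of the 5 members called lower at 1% pO2, Hspa8 and Hsf1 were not matched to a promoter. The core of the hypoxia response element (ACGTG or GCGTG on either strand) was in 78.6% of the 56 members and in 70.0% of genes that passed the filter.

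By limma, described next, Hsph1, Hspd1, Hspe1 and 6 of 7 CCT subunits were lower at both hypoxic levels. The exception was Cct5 at 4% pO2. Hspa4, Dnajb11, Dnajc15 and Dnajc17 were lower at both levels as well. Called higher at both levels were Hspa2, Dnajb4, Dnajb5, Dnajb12, Dnajc5, Bag2, Bag3, Hsf4 and Hsp90aa1. Of these, only Hspa2 and Dnajb4, with levels under 20 FPKM, also rose by at least 0.5 in both pairs at both levels. Differences are of log2(FPKM + 1). A gene was called where vehicle and PT2385 pairs, which share no library, both differed by at least 0.5 in the same direction. At 4% pO2, 8 of 71 members (11.3%) were called higher, against 13.9% of all 11967 genes, and 5 (7.04%) lower, against 6.66%. At 1% pO2, 2 members (2.82%) were called higher, against 13.2% of all genes, and 5 (7.04%) lower, against 6.36%. At this cut-off, the share called lower was close to that of all genes at both levels. The share called higher at 1% pO2 was below that of all genes. With 0.3 required in both pairs, 18.3% of members were lower at 4% pO2, against 14.6% of all genes. At 1% pO2 it was 23.9%, against 14.3%. Higher were 16.9% at 4% pO2, against 21.9%, and 9.86% at 1% pO2, against 20.4%. By sign alone, 23 members (32.4%) were higher in both pairs at 4% pO2, against 44.1% of all genes, and 38 (53.5%) lower, against 39.3%. At 1% pO2, 25 (35.2%) were higher, against 42.5%, and 35 (49.3%) lower, against 40.9%. The 4% and 1% comparisons use the same normoxic libraries, so they are given side by side and not as repeats of each other.

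limma was fitted to all 6 libraries with pO2 and treatment as terms, which leaves 2 residual degrees of freedom and takes as error how the PT2385 difference varied with pO2. Vehicle and PT2385 libraries of a pO2 may come from the same adapted cultures, so these p-values can be too small. At an adjusted p under 0.05 over all genes, 16 members were higher and 20 lower at 4% pO2, while 27.5% and 22.7% of all genes were. At 1% pO2, 17 were higher and 25 lower, against 25% and 21.9% of all genes. With each library left out in turn, 8 of the 16 and 12 of the 20 calls at 4% pO2 held every time, as did 6 of the 17 and 15 of the 25 at 1% pO2. The share of the calls of all genes that held in such fits was not computed. The counts of calls that held, here and below, can thus not be called many or few. Each limma difference given here equals the mean of the vehicle and PT2385 differences, followed by its standard error.

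**Figure D1:**
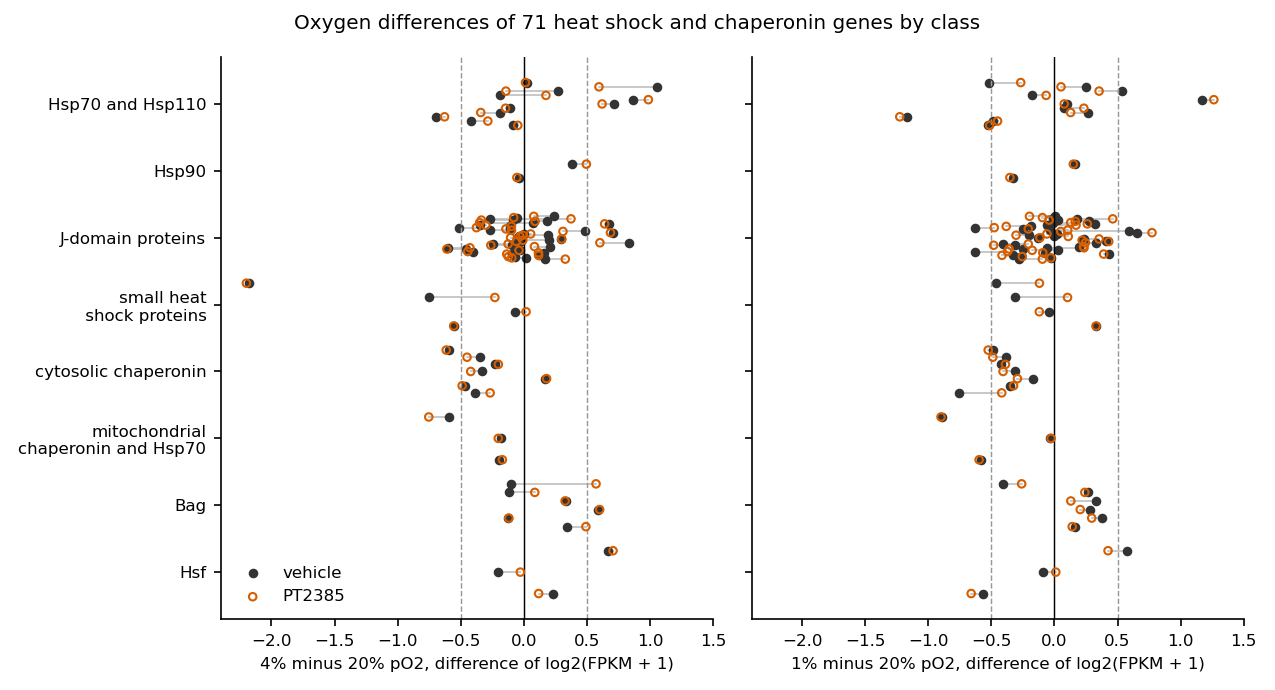
Difference of log2(FPKM + 1) from 20% pO2 at 4% (left) and 1% pO2 (right) for the 71 members, with 1 row of points per gene, grouped by class. Filled points are vehicle, open points PT2385, grey lines join both values of a gene, and dashed lines mark 0.5 in either direction. All 7 CCT subunits lie left of 0 at 1% pO2, and 1 of them, Cct5, lies right of it at 4% pO2.

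Among the Hsp70 and Hsp110 genes, Hsph1 and Hspa4 were lower at both hypoxic levels, Hspa8 was lower at 1% pO2, and the scarce Hspa2 was higher at both. Hsph1 (chr5:149614287-149636376), the Hsp110 that serves as a nucleotide exchange factor of Hsp70, stood at 127 FPKM with vehicle and 130 with PT2385 at 20% pO2, 78.3 and 83.5 at 4% pO2, and 56.2 and 54.8 at 1% pO2. The 3 oxygen levels did not overlap, and every step down in oxygen was a step down in Hsph1. Each level has only 2 libraries, and how many of all genes have levels that do not overlap was not counted. Such remarks, here and below, therefore describe single genes and do not set them apart from others. Its level was 1.63-fold and 1.55-fold lower at 4% pO2 and 2.27-fold and 2.36-fold lower at 1% pO2. The limma difference was -0.66 ± 0.048 (SE, adjusted p = 0.000438) at 4% pO2 and -1.20 ± 0.048 (adjusted p = 0.000109) at 1% pO2, and both calls held with each library left out. Counting error alone gave a 95% interval of 0.385 to 0.505 for the vehicle ratio of 1% to 20% pO2.

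Hspa8, the constitutive Hsp70 and the member with the highest level in every library, was at 2722 and 2880 FPKM at 20% pO2 (vehicle, then PT2385). It was at 2571 and 2787 FPKM at 4% pO2 and at 1887 and 2017 FPKM at 1% pO2. The 4% and 20% libraries overlapped, and both 1% libraries were below all others. Its difference was -0.52 ± 0.027 at 1% pO2 (limma, adjusted p = 0.000211), while at 4% pO2 it did not pass the threshold (adjusted p = 0.104). Hspa4, another Hsp110-type exchange factor, fell from 152 and 154 FPKM to 114 and 126 at 4% pO2 and 108 and 113 at 1% pO2, with limma differences of -0.35 ± 0.047 and -0.47 ± 0.047 (adjusted p = 0.00308 and 0.00138).

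Hspa2 (chr12:76404176-76406938), an Hsp70 best known from sperm formation, went the other way. It was at 3.33 and 2.88 FPKM at 20% pO2, 6.88 and 6.69 at 4% pO2, and 8.73 and 8.31 at 1% pO2, with no overlap between oxygen levels. The ratio to normoxia was 2.06 and 2.32 at 4% pO2 and 2.62 and 2.89 at 1% pO2, on an estimated 155 to 465 fragments per library. It was the member with the largest rise at 1% pO2 (limma difference 1.22 ± 0.086, adjusted p = 0.000491).

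Hspa4l, a relative of Hspa4, was at 9.72 and 9.59 FPKM in normoxia, 16.6 and 15.3 at 4% pO2, and 10.5 and 10.2 at 1% pO2. Its rise was thus called at 4% pO2 (0.67 ± 0.067, limma adjusted p = 0.00122) and not at 1% pO2 (adjusted p = 0.333). Hspa12b, a distant Hsp70 relative, was at 1.00 and 1.26 FPKM in normoxia, 3.15 and 2.42 at 4% pO2, and 1.38 and 1.35 at 1% pO2. By its shortest coding transcript it rests on only 10 to 34 estimated fragments. On those, the counting interval of its PT2385 ratio at 4% pO2 (0.933 to 4.18) includes 1. By its longest, the estimate is 74 to 239 fragments, for which no interval was computed.

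The stress-inducible Hsp70 genes had low levels. Hspa1b was between 2.66 and 4.59 FPKM, and Hspa1a was between 0.235 and 1.21 FPKM, under the filter. limma called Hspa1b higher at 1% pO2 (0.45 ± 0.133, adjusted p = 0.0428), a call lost without either normoxic or either 1% library. Hspa1a and Hspa1b were both at their highest in the 2 libraries at 1% pO2. These near-identical copies can share reads, so neither level is certain, and how the authors assigned reads that map to several genes is not given in the sources used here. The same holds for members with processed pseudogenes, such as Hspa8, Hspd1, Hspe1 and Hsp90ab1.

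**Figure D2:**
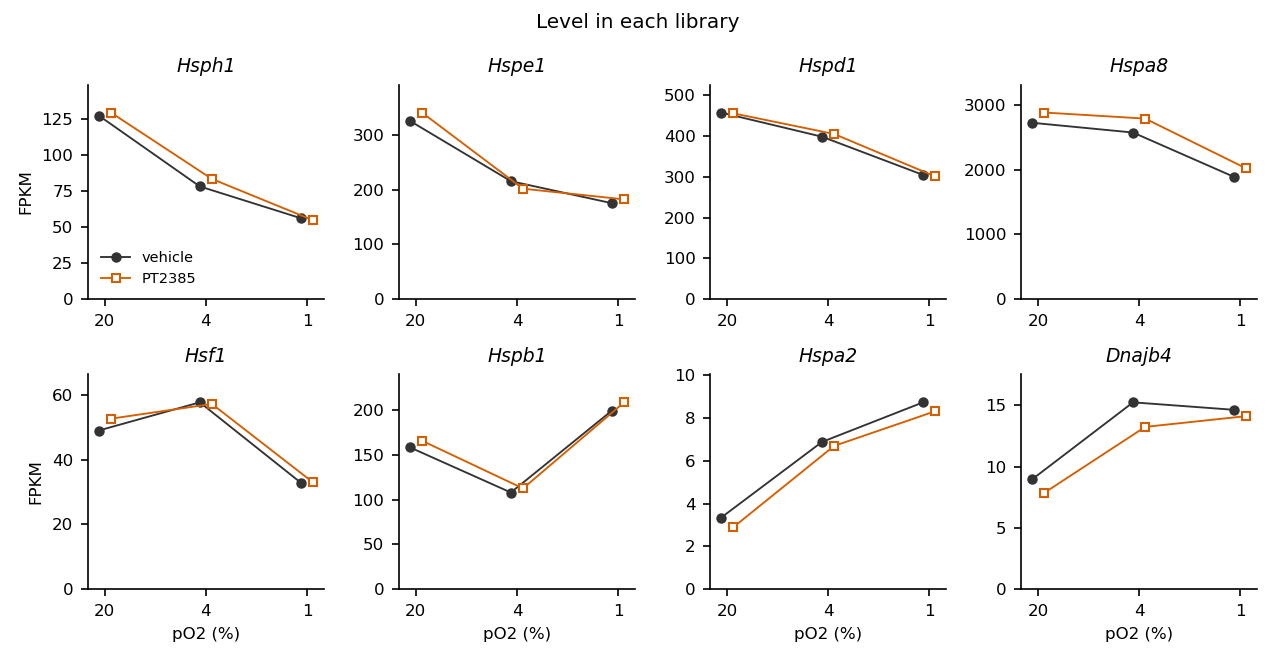
Level in FPKM (each axis from 0) against pO2 for 8 members, 1 library per point, with filled circles for vehicle and open squares for PT2385. Hsph1, Hspe1 and Hspd1 step down with pO2, Hspa2 steps up, Hspa8 and Hsf1 are low at 1% pO2 only, and Hspb1 is low at 4% and high at 1% pO2.

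Subunits of the cytosolic chaperonin were lower in hypoxia, with 1 exception at 4% pO2. The rule covers 7 expressed subunits of the 8-membered ring, and Tcp1, the remaining one, was read beside them. Summed over the members, CCT stood at 2237 FPKM with vehicle and 2318 with PT2385 in normoxia. The sum was 1805 and 1871 FPKM at 4% pO2 and 1657 and 1754 FPKM at 1% pO2. By limma, 6 of the 7 subunits were lower at 4% pO2 and 7 of 7 at 1% pO2, against 22.7% and 21.9% of all genes. Of these calls, 5 and 6 held with each library left out, and those of Cct6a at 4% pO2 and Cct5 at 1% pO2 did not. The median difference of the 7 was -0.35 with vehicle and -0.42 with PT2385 at 4% pO2 and -0.38 and -0.41 at 1% pO2, while the medians over all genes were between 0.00 and 0.02.

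Cct4 was the subunit with the largest fall at 4% pO2, from 257 and 265 FPKM to 170 and 173, and it stood at 183 and 184 at 1% pO2. Its limma differences were -0.60 ± 0.034 and -0.51 ± 0.034 (adjusted p = 0.000232 and 0.000442). Cct5 was the exception. It was at 267 and 278 FPKM in normoxia, 300.1 and 315 at 4% pO2 and 237 and 226 at 1% pO2, so its 3 oxygen levels did not overlap but were not in the order of oxygen. Its rise at 4% pO2 was small (0.17 ± 0.046, limma adjusted p = 0.0287) and was lost without any 1 of the 20% and 4% libraries (differences of 0.14 to 0.21, adjusted p = 0.0618 to 0.17).

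Cct2, Cct3, Cct7 and Cct8 had normoxic levels between 270 and 399 FPKM and were lower in all 4 hypoxic libraries, by 0.20 to 0.49 on the log2 scale. Cct6a was at 487 and 497 FPKM in normoxia and 288 and 372 at 1% pO2, the widest gap between vehicle and PT2385 in the ring. Its annotation shares 12.5% of exonic bases with Psph on the other strand, and the counting is not stated to use strand. Tcp1 was at 405 and 419 FPKM in normoxia, 331 and 347 at 4% pO2, and 349 and 345 at 1% pO2. Cct6b, the testis form, was at or below 0.0543 FPKM in every library.

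**Figure D3:**
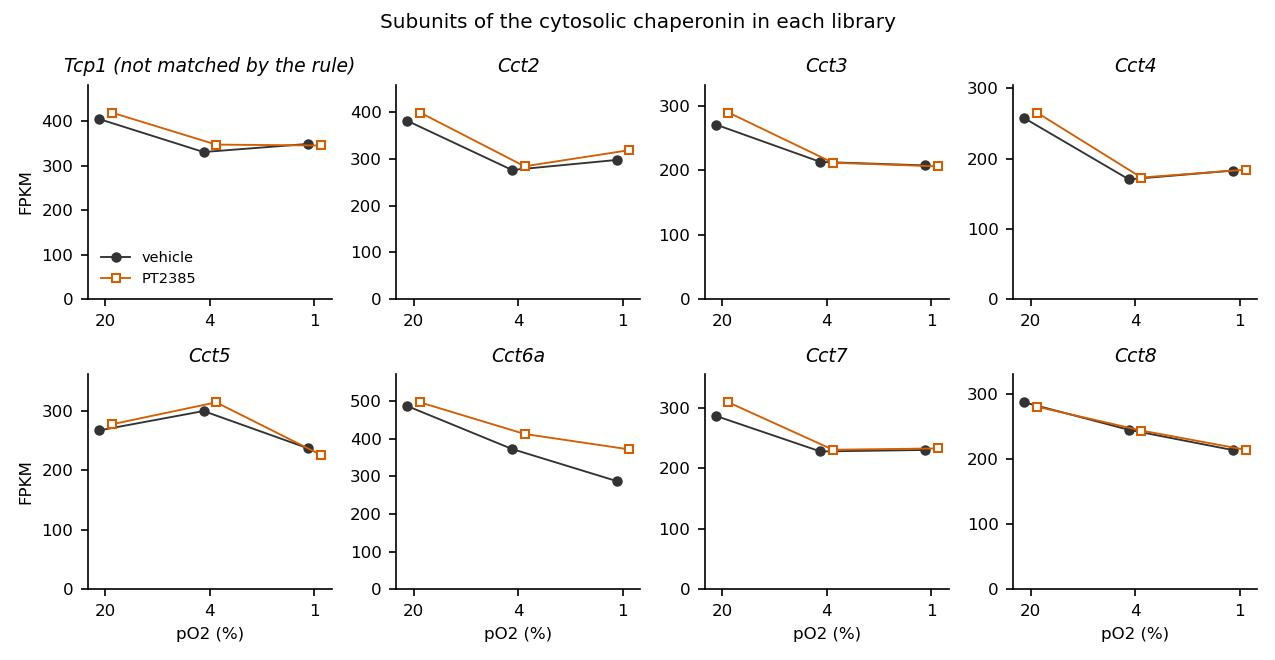
Level in FPKM (each axis from 0) against pO2 for the 8 subunits of the cytosolic chaperonin, 1 library per point, with filled circles for vehicle and open squares for PT2385. Both hypoxic levels are below normoxia for every subunit but Cct5, which is above normoxia at 4% pO2.

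Both parts of the mitochondrial chaperonin were lower in hypoxia. Hspe1 (chr1:55088132-55091307), the Hsp10 lid, was at 326 and 341 FPKM in normoxia, 216 and 202 at 4% pO2, and 175 and 182 at 1% pO2, differences of -0.67 ± 0.051 and -0.89 ± 0.051 (limma, adjusted p = 0.000529 and 0.000274). Hspd1 (chr1:55077835-55088243), the Hsp60 barrel, was at 457 and 455 FPKM in normoxia, 398 and 404 at 4% pO2, and 304 and 300.6 at 1% pO2. For both genes the 3 oxygen levels did not overlap. Hspd1 differed by -0.59 ± 0.032 at 1% pO2 (limma, adjusted p = 0.000238). Its smaller difference at 4% pO2, -0.18 ± 0.032 (limma, adjusted p = 0.00749), was lost without the 4% vehicle library or either normoxic one (adjusted p = 0.052 to 0.06). Hspa9, the mitochondrial Hsp70, was at 271 and 272 FPKM in normoxia and 239 and 236 at 4% pO2, but at 265 and 267 at 1% pO2 (limma, adjusted p = 0.487).

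Of the 9 mitochondrial members, 9 were lower in both pairs at 4% pO2 and 8 at 1% pO2, against 39.3% and 40.9% of all genes. limma called 5 and 6 of them lower, against 22.7% and 21.9% of all genes, and 0 higher. With each library left out, only the calls of Hspe1 at 4% pO2 and of Hspd1 and Hspe1 at 1% pO2 held every time. Of the 10 members in the endoplasmic reticulum, 6 and 2 were lower in both pairs. Among them Dnajb11, a J-domain partner of BiP, fell from 63.3 and 65.2 FPKM to 45.7 and 42.4 at 4% pO2 and 53.1 and 50.6 at 1% pO2.

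The cytosolic Hsp90 genes differed from each other. Hsp90ab1, the constitutive form, was at 1806 and 1925 FPKM in normoxia, 1754 and 1853 at 4% pO2, and 1441 and 1507 at 1% pO2. Its libraries overlapped between 20% and 4% pO2, and both 1% libraries were lower (-0.34 ± 0.028, limma adjusted p = 0.000762). Hsp90aa1, the inducible form, was at 690 and 656 FPKM in normoxia, 899 and 926 at 4% pO2, and 774 and 728 at 1% pO2. It was higher at 4% pO2 by 0.44 ± 0.042 (limma, adjusted p = 0.0011). The 1% difference of 0.16 ± 0.042 (limma, adjusted p = 0.0314) was lost without any 1 of the 20% and 1% libraries (differences of 0.12 to 0.20, adjusted p = 0.0784 to 0.195).

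Hspb1 (chr5:135887919-135889563), the small heat shock protein known for guarding actin filaments, was at 159 and 166 FPKM in normoxia, 108 and 113 at 4% pO2, and 199.9 and 209 at 1% pO2. It was therefore 1.47-fold lower at 4% pO2 in both pairs, and its ratio to normoxia at 1% pO2 was 1.26 in both. The limma differences were -0.55 ± 0.035 and 0.33 ± 0.035 (adjusted p = 0.000309 and 0.0016), and both calls held with each library left out. Hspb6, which is enriched in muscle, stayed between 25.1 and 29.4 FPKM, with overlapping oxygen levels.

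Hspb8, the partner of Bag3, was at 3.52 and 3.59 FPKM in normoxia and 2.29 and 3.23 at 1% pO2, and is listed at 0 in both libraries at 4% pO2. Among the genes that passed the filter, 16 are listed at 0 in exactly those 2 libraries, and whether the value is a failed estimate was not tested. Without genes listed at 0, 4 members were called lower at 4% pO2. Hspb11, now known as a part of intraflagellar transport, was between 13.1 and 22.7 FPKM, and its pairs disagreed in size at 4% pO2 (-0.75 with vehicle, -0.23 with PT2385).

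Among the 35 expressed J-domain proteins, calls went in both directions. At 4% pO2 limma called 6 higher and 5 lower (27.5% and 22.7% of all genes), of which 3 and 2 held with each library left out. At 1% pO2 it called 7 higher and 11 lower (25% and 21.9% of all genes), of which 3 and 2 held. Dnajb4, a cytosolic partner of Hsp70 expressed in muscle, was at 8.95 and 7.85 FPKM in normoxia, 15.2 and 13.2 at 4% pO2, and 14.6 and 14.1 at 1% pO2. It was the one J-domain gene with differences of at least 0.5 in both pairs at both levels (limma differences 0.70 ± 0.071 and 0.71 ± 0.071, adjusted p = 0.00128 and 0.00133). Its hypoxic libraries overlapped each other and not the normoxic ones. By its shortest coding transcript it rests on 28 to 55 estimated fragments, and by its longest on 411 to 818. On the fewer, the counting intervals of its ratios to normoxia start between 1.01 and 1.1. Dnajc5, the cysteine-string protein of secretory vesicles, was at 26.3 and 25.5 FPKM in normoxia, 47.7 and 39.2 at 4% pO2, and 33.3 and 30.4 at 1% pO2. Dnajb5 was at 4.26 and 4.86 FPKM in normoxia, 7.39 and 8.13 at 4% pO2, and 5.59 and 6.02 at 1% pO2. For Dnajc5 and Dnajb5 the 1% libraries thus lay between those of normoxia and of 4% pO2.

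Dnaja1, the J-domain gene with the highest mean, is a farnesylated partner of Hsp70 and stood at 179 and 173 FPKM in normoxia, 201 and 217 at 4% pO2, and 147 and 162 at 1% pO2. Dnajb1, the Hsp40 induced by heat, was at 23.2 and 23.5 FPKM in normoxia, 22.9 and 22.6 at 4% pO2, and 31.1 and 32.1 at 1% pO2, a rise of 0.42 ± 0.052 at 1% pO2 (limma, adjusted p = 0.00262). Dnajc9, a histone chaperone of dividing cells, was likewise higher at 1% pO2 alone, at 104 and 99.1 FPKM against 76.7 and 75.4 in normoxia. Both calls held with each library left out. Dnajb6, whose promoter carries the element printed earlier, was between 72.04 and 84.98 FPKM in all libraries and was lower at 1% pO2 by 0.07 and 0.09, with a limma adjusted p of 0.154.

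Of the J-domain proteins in mitochondria, Dnajc15 of the inner membrane was at 73.3 and 70.1 FPKM in normoxia and between 47.0 and 55.1 in the 4 hypoxic libraries. Dnajc21, which acts in ribosome assembly, was at 44.8 and 46.9 FPKM in normoxia, 29.3 and 34.6 at 4% pO2, and 42.9 and 55.4 at 1% pO2, so that only the 4% libraries stood apart. Among the least certain values are those of Dnaja4, which shares 44.1% of its exonic bases with Wdr61 on the other strand, and of Dnajc30, which shares 26.2% with Bud23.

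Of the 6 Bag genes, limma called 3 higher at 4% pO2 and 4 at 1% pO2 (27.5% and 25% of all genes), and 0 lower. With each library left out, Bag3 and Bag6 held at 4% pO2 and Bag1 alone at 1% pO2. Bag3, the Hsp70 partner that directs damaged muscle proteins to autophagy, was at 68.0 and 74.5 FPKM in normoxia, 102 and 114 at 4% pO2, and 83.0 and 86.0 at 1% pO2, with no overlap between oxygen levels. Its differences were 0.59 ± 0.044 and 0.24 ± 0.044 (limma, adjusted p = 0.000498 and 0.0092), of which the second was lost without the 1% vehicle library or either normoxic one (adjusted p = 0.056 to 0.0727). Bag1, a nucleotide exchange factor, was at 104 and 108 FPKM in normoxia, 95.1 and 99.2 at 4% pO2, and 135 and 133 at 1% pO2.

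Bag6, which hands tail-anchored proteins to the membrane, was at 111 and 108 FPKM in normoxia, 141 and 152 at 4% pO2, and 125 and 119 at 1% pO2. Bag2, an inhibitor of the ubiquitin ligase CHIP, was at 32.3 and 35.6 FPKM in normoxia and between 39.0 and 44.9 in the hypoxic libraries. Bag1 was thus highest at 1% pO2, and Bag3 and Bag6 at 4% pO2. Bag5 was between 15.8 and 21.3 FPKM and Bag4 between 7.58 and 14.3 FPKM.

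The heat shock factors had a pattern for each gene. Hsf1 was at 49.1 and 52.8 FPKM in normoxia, 57.8 and 57.3 at 4% pO2, and 32.9 and 33.0 at 1% pO2. The 1% libraries were below all others, with a difference of -0.61 ± 0.051 (limma, adjusted p = 0.000831) that held with each library left out. Its rise at 4% pO2 (0.17 ± 0.051, limma adjusted p = 0.0392) was lost whichever of the 6 libraries was left out (differences of 0.12 to 0.23, adjusted p = 0.0684 to 0.21). Hsf2 was between 16.8 and 19.6 FPKM, with overlapping oxygen levels.

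Hsf4, the factor best known from the lens, was at 2.33 and 2.49 FPKM in normoxia, 4.29 and 4.69 at 4% pO2, and 3.95 and 3.68 at 1% pO2. All 4 hypoxic libraries were above the normoxic ones, and the 4% call (0.69 ± 0.107, limma adjusted p = 0.00509) was lost without the normoxic vehicle library (adjusted p = 0.0502). Hsf5 was at or below 0.0894 FPKM, and Hsf3 is listed at 0 in every library, as are Dnajb8 and Dnajb13. The other members under the filter, Hspb2, Hspb3, Hspb7, Hspb9, Dnajb3, Dnajb7, Dnajc6, Dnajc22 and Dnajc28, were at or below 1.29 FPKM throughout.

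The step from 4% to 1% pO2 was read in the same limma fit. It gave 14 members higher and 22 lower, against 20.7% and 22.3% of all genes. With each library left out in turn, 7 of the 14 and 10 of the 22 calls held. Hspb1 rose by 0.88 (adjusted p = 0.000393), and Hsf1 fell by 0.79 (adjusted p = 0.000837), from 4% to 1% pO2. Both genes were thus called on opposite sides of normoxia at the 2 hypoxic levels, as were Cct5, Dnaja1 and Hspa14, a ribosome-bound Hsp70. How many of all genes were called this way was not counted. Hspa14 was at 44.2 and 45.6 FPKM in normoxia, 38.7 and 35.8 at 4% pO2, and 53.4 and 49.9 at 1% pO2.

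Co-chaperones outside the family were read from a fixed list. Of 26 expressed Hsp90 and Hsp70 co-chaperones, Tcp1 included, limma called 5 higher and 17 lower at 4% pO2 and 1 higher and 17 lower at 1% pO2. Of all genes, 27.5% and 22.7% were called at 4% pO2 and 25% and 21.9% at 1% pO2. Counts with a library left out were not made for this list and those that follow. Their median difference was -0.24 and -0.30 at 4% pO2 and -0.37 and -0.38 at 1% pO2. Ppid, a prolyl isomerase that binds Hsp90, was at 146 and 154 FPKM in normoxia, 98.5 and 97.5 at 4% pO2, and 74.6 and 77.9 at 1% pO2. Stip1, which joins Hsp70 to Hsp90, was at 238 and 255 FPKM in normoxia, 203 and 208 at 4% pO2, and 149.8 and 149.0 at 1% pO2. For both genes the oxygen levels did not overlap. St13, an Hsp70-interacting protein, stood apart at 184 and 207 FPKM at 4% pO2, against 108 to 119 elsewhere.

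Of 12 expressed genes from a list of others known to respond to heat, limma called 4 higher and 5 lower at 4% pO2 (27.5% and 22.7% of all genes) and 8 higher and 2 lower at 1% pO2 (25% and 21.9% of all genes). Zfand2a, which binds the proteasome under stress, was at 7.88 and 7.69 FPKM in normoxia, 9.76 and 12.5 at 4% pO2, and 25.2 and 25.4 at 1% pO2. Atf3, a stress-induced transcription factor, was at or below 0.402 FPKM in normoxia and at 7.94 and 8.49 at 1% pO2. Serpinh1, the collagen chaperone, was lower, at 369 and 366 FPKM at 1% pO2 against 658 and 645 in normoxia. Of the 9 prefoldin and phosducin-like genes, which deliver clients to CCT, limma called 1 higher and 4 lower at 4% pO2 and 0 in either direction at 1% pO2. Of 11 mitochondrial chaperone and protease genes, limma called 1 higher and 4 lower at each level. Lonp1, the matrix protease, was the one called higher, at 36.2 and 37.8 FPKM in normoxia, 66.5 and 66.3 at 4% pO2, and 94.4 and 86.9 at 1% pO2. Of 12 chaperones of the endoplasmic reticulum, limma called 0 higher and 8 lower at 4% pO2 and 1 higher and 6 lower at 1% pO2, to be read against the same shares of all genes, as are the prefoldin and mitochondrial lists.

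Differences between PT2385 and vehicle were small across the family. No member differed by 0.5 in the same direction at all 3 oxygen levels, where 12 genes (0.1%) were higher and 5 (0.0418%) lower among all genes. limma called 0 members, higher or lower, and 0 genes in all (0%) at an adjusted p under 0.05, and without a trend in the variance it called 1 gene, lower, which was no member. At an unadjusted p under 0.05 it gave 10 members higher and 1 lower, and 841 higher and 613 lower among all genes. These counts depend on scaling. Median-ratio scaling gave 8 members higher and 2 lower, and 714 and 734 among all genes. Equal-sum scaling gave 3 members higher and 4 lower, and 402 and 1144 among all genes. By sign alone, on unscaled values, 21 of 71 members (29.6%) were higher with PT2385 at all 3 levels, against 18.9% of all genes. Lower were 10 (14.1%), against 18.4%. Dnajc1, an endoplasmic reticulum membrane protein that binds BiP, was at 11.99 FPKM with vehicle and 14.6 with PT2385 at 20% pO2, 12.01 and 15.2 at 4% pO2, and 12.2 and 13.9 at 1% pO2. Its PT2385 differences of 0.26, 0.31 and 0.18 had the same sign at every level (limma, adjusted p = 0.367), and 6.43% of its exonic bases overlap Mllt10 on the other strand. Hspa8 was higher with PT2385 at each level by 0.08 to 0.12 (limma, adjusted p = 0.367). The only single difference over 0.5 was that of Dnaja4 at 4% pO2, 0.63.

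**Figure D4:**
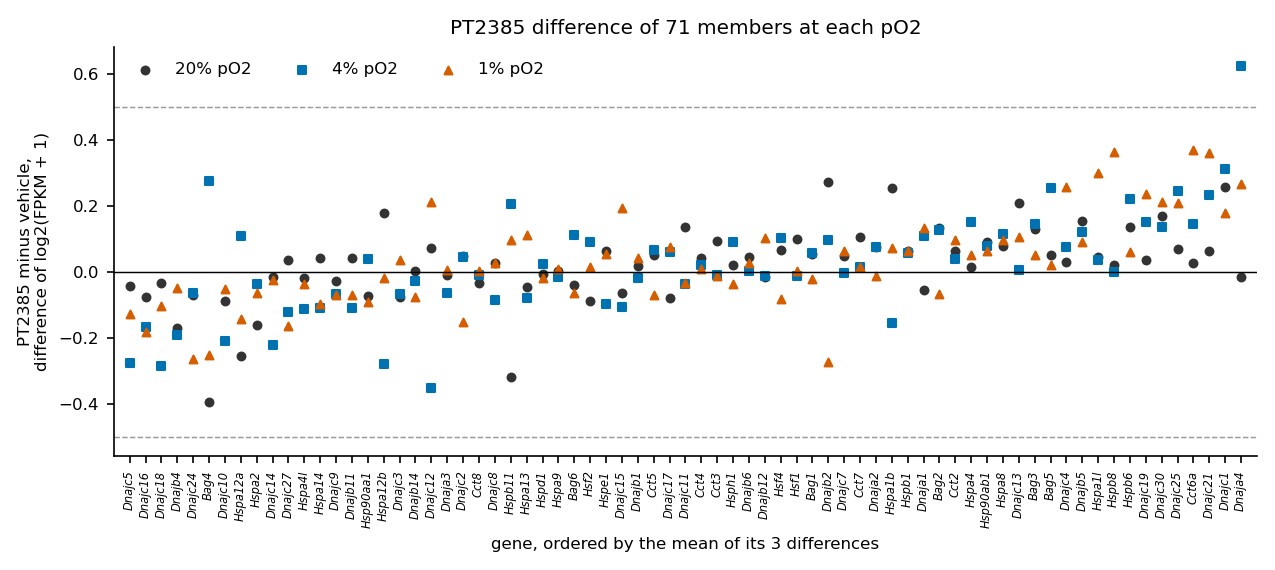
Difference of log2(FPKM + 1) between PT2385 and vehicle at 20% (circles), 4% (squares) and 1% pO2 (triangles) for the 71 members, ordered by their mean difference. Dashed lines mark 0.5 in either direction. 1 of the points, Dnaja4 at 4% pO2, lies outside them.

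Markers of the labelled cell type and of differentiation moved with oxygen as well. The 6 myoblast markers summed to 1249 and 1282 FPKM in normoxia, 743 and 831 at 4% pO2, and 792 and 831 at 1% pO2. Most of it was Myod1 (921 and 951 FPKM in normoxia). limma called 5 of the 5 expressed ones lower at 4% pO2 and 4 at 1% pO2, against 22.7% and 21.9% of all genes. Itga7, not called at 1% pO2, was at 51.0 and 46.7 FPKM there, against 42.9 and 44.7 in normoxia. Of 10 expressed differentiation genes, limma called 5 higher and 1 lower at 4% pO2 (27.5% and 22.7% of all genes). At 1% pO2 it called 1 higher and 2 lower (25% and 21.9% of all genes). The 5 leukocyte markers summed to 4.38 and 5.04 FPKM in normoxia, 93.6 and 103 at 4% pO2, and 20.7 and 22.9 at 1% pO2, most of it Laptm5 at 4% pO2 (80.7 and 91.5 FPKM). Cd68 was at 2.08 and 2.78 FPKM in normoxia, 10.4 and 9.88 at 4% pO2, and 13.5 and 14.6 at 1% pO2. Cd14 was at 1.75 and 1.75, 2.50 and 1.86, and 3.66 and 3.98 FPKM in the same order. Ptprc, which defines leukocytes, was at or below 0.00994 FPKM and Csf1r at or below 0.167 FPKM. Of the 3 expressed leukocyte markers, limma called 2 higher at 4% pO2 and 3 at 1% pO2 (27.5% and 25% of all genes). The 4 fibroblast and adipogenic progenitor markers summed to 2.44 and 3.52 FPKM in normoxia, 5.60 and 6.30 at 4% pO2, and 13.2 and 13.5 at 1% pO2. The 2 expressed ones, Cd34 and Ly6a, were called higher by limma at both levels (27.5% and 25% of all genes). Pdgfra was at or below 0.425 FPKM and Dpt at or below 0.0285 FPKM. The 3 endothelial markers summed to at most 1.09 FPKM. The part of these shifts in the differences of the chaperone genes was not tested.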

How the data were processed

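The authors pooled RNA per condition for DNBSEQ sequencing. Tools named in the submitters' processing notes are HISAT2 2.1.0, SAMtools 1.3.1, Cufflinks and Cuffdiff 2.2.1 with GRCm38, while the supplementary methods name TopHat2. The deposited values were taken as FPKM, as their range and the use of Cuffdiff imply, since no source states the unit. They were used unscaled as log2(FPKM + 1), which understates changes of low genes, for genes with a mean of at least 1. GENCODE M21 held 54719 of 54834 identifiers. Comparisons between single libraries have no test. limma 3.58.1 (R 4.3.3, trend, Benjamini-Hochberg over all kept genes) was tested on simulated data. Fragment numbers came from the spacing of low values and each gene's shortest coding transcript; intervals of ratios are exact binomial (95%) and hold counting error alone. Members, lists and tests were chosen with earlier results of these data known. Values in every library are given for members called, the highest of each class, and Bag and Hsf genes, and for up to 3 genes of another list. Others named were chosen after their values were seen. Alternatives were other pseudocounts, filters, scalings, thresholds and single pairs, limma without a trend, and each library left out. The contrast of 1% with 4% pO2 and protein-coding genes alone were added after the data were seen. Python 3.11.15, numpy 2.4.6, pandas 2.3.3, scipy 1.17.1 and matplotlib 3.10.9 were used.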

Additional observations from a re-analysis of the deposited data

Results flagged for a closer look

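For 5 members the limma differences from normoxia at 4% and at 1% pO2 were called in opposite directions, and the difference between the 2 hypoxic levels was itself called. The share of all genes that meet this rule was not computed, so the 5 cannot be called many or few. From 4% to 1% pO2, Hspb1 was higher by 0.88 (limma, adjusted p = 0.000393) and Hspa14 by 0.46 (adjusted p = 0.00376). Hsf1 was lower, with a difference of -0.79 (adjusted p = 0.000837), as were Dnaja1 with -0.44 (adjusted p = 0.00404) and Cct5 with -0.41 (adjusted p = 0.00284). These 5 differences between 1% and 4% pO2 were called with each library left out in turn. Of the differences from normoxia, those of Hspb1 at both levels and that of Hsf1 at 1% pO2 held in every such fit, and the others did not.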

How the results depend on the processing

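With a difference of at least 1 required in both pairs, 0 members were called higher and 1 lower at 4% pO2, against 5.62% and 2.11% of all genes. At 1% pO2 1 was called higher and 1 lower, against 5.26% and 1.3%. With 0.3 required, 12 (16.9%) were higher and 13 (18.3%) lower at 4% pO2, against 21.9% and 14.6% of all genes. At 1% pO2, 7 (9.86%) were higher and 17 (23.9%) lower, against 20.4% and 14.3%. The vehicle pair alone gave 8 lower at 4% pO2, and 5 higher and 9 lower at 1% pO2. For limma, 11 members were higher at 1% pO2 without a trend in the variance. With no filter on low values, 8 were higher at 1% than at 20% pO2 and 9 were higher at 1% than at 4% pO2. Leaving out each library in turn gave 9 to 15 members higher and 13 to 18 lower at 4% pO2, 6 to 16 higher and 17 to 23 lower at 1% pO2, and 7 to 10 higher and 11 to 19 lower from 4% to 1% pO2. These counts fall partly by construction, since 1 residual degree of freedom is left. The counts under every other setting were within 1.5 times those reported. The counts of members called for PT2385, unadjusted p aside, were 0 in each direction under every setting. Of 114 limma calls of single members, none changed sign. Of the 903 values under settings that kept all libraries, 71 were no longer called, and of the 684 with a library left out, 210. Rescaling moved the median of all genes by less than 0.1. The limma fit compares PT2385 with vehicle within each pO2. No paired analysis was possible because the labels carry no replicate numbers, other than that pairing by pO2. The depth limits members with few fragments, such as Hspa1a and, by their shortest coding transcripts, Hspa12b and Dnajb4. Without separate libraries of cultures the variation between cultures was not measured.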
